A study of Mus musculus with 4 samples.

Results

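CXC chemokine genes were followed in RAW264.7 cells, an established mouse macrophage line, kept alone (mock) or in coculture with CT26, which is a colon carcinoma line of the mouse. The genes were picked by symbol: Cxcl1, Cxcl2, Cxcl3, Cxcl5, Cxcl9, Cxcl10, Cxcl11, Cxcl14 and Cxcl16, 9 in all, of which 8 are among the 22554 genes named in both deposited tables. The study has 4 messenger RNA libraries, 2 mock and 2 coculture, and each table holds 1 mock and 1 coculture library with the same replicate number, called pair 1 and pair 2 here. Per the labels, the macrophages were kept in DMEM medium and the carcinoma cells in RPMI1640. The length of the coculture, whether the cells touched, and how macrophages were recovered are unknown here. RAW264.7 is a single transformed line, and nothing says that libraries of a group came from separate cultures, so a p-value here reflects only how these 4 libraries vary, which may be technical variation.

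CXC chemokines are small secreted proteins named for a pair of cysteines with a single residue between them. Those with a glutamate-leucine-arginine (ELR) motif before the cysteines, here CXCL1, CXCL2, CXCL3 and CXCL5, bind CXCR2 and attract neutrophils, and macrophages make them after NF-kappaB signalling. CXCL9, CXCL10 and CXCL11 lack the motif, are induced by interferons and attract T and natural killer cells through CXCR3. CXCL14 is made steadily by many epithelia. CXCL16 is held on the cell surface, is shed by proteases, binds CXCR6 and also takes up oxidised lipoprotein.

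Most of the genes lie together on mouse chromosome 5. In RefSeq's gene order (GRCm38.p6), Cxcl5, Ppbp, Pf4, Cxcl3, Cxcl15, Cxcl1 and Cxcl2 follow each other in 1 group, and Cxcl9, Cxcl10 and Cxcl11 stand in another with Art3 among them. Cxcl14 is on chromosome 13 and Cxcl16 on chromosome 11. RefSeq's promoter table held 6 of the 9 genes, and Cxcl5, Cxcl11 and Cxcl16 had no entry. The 250 bases before the annotated start are printed for 4 genes, because 3 of them (Cxcl1, Cxcl2 and Cxcl3) are close relatives with very different levels in coculture, and Cxcl10 represents the CXCR3 ligands. Capitals mark matches to the NF-kappaB consensus site and, in Cxcl10 alone, also to the interferon-stimulated response element (TTTC, any 2 bases, TTTC) and the AP-1 site (TGANTCA), with both strands searched.
Cxcl2, chr5:90903649-90903898, plus strand: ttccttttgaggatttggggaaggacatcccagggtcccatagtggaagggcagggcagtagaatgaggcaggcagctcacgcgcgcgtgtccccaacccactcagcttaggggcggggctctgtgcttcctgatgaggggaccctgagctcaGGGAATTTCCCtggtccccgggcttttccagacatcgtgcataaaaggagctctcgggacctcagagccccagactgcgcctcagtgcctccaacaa
Cxcl3, chr5:90785851-90786100, plus strand: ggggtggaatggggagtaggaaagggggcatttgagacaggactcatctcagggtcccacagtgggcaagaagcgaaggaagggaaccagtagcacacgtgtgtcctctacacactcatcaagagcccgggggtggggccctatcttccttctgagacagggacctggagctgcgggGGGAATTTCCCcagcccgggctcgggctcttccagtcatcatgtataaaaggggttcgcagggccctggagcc
Cxcl1, chr5:90890995-90891244, plus strand: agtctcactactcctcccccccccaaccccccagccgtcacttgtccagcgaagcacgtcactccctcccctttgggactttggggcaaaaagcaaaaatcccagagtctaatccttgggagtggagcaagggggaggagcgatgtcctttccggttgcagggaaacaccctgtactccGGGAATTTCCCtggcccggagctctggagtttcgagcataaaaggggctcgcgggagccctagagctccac
Cxcl10, chr5:92348890-92349139, minus strand: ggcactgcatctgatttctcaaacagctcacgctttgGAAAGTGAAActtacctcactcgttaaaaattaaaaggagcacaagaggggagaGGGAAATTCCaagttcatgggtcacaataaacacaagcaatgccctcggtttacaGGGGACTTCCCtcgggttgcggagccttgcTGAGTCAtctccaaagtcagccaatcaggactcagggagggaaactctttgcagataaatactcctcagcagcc

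The same 11 bases, GGGAATTTCCC, stood before the start of Cxcl1, Cxcl2 and Cxcl3, beginning 71, 97 and 73 bases upstream. They hold 2 overlapping matches to the NF-kappaB consensus, 1 on each strand. Cxcl10 had GGGAAATTCC from 159 bases and GGGGACTTCCC from 104 bases upstream, the latter with 2 overlapping matches, plus an interferon-stimulated response element from 213 and an AP-1 match from 74 bases upstream. Over the full windows, which run on to 50 bases past the start, Cxcl9 and Cxcl14 had no NF-kappaB match. Cxcl9 had an AP-1 match and a TATAAA match, and Cxcl14 had a response element match and 1 gamma-activated site (TTCNNNGAA). Cxcl3 had TATAAA from 30 bases upstream. Of 32851 mouse promoter windows of this length, 8.46% held the NF-kappaB consensus, 3.44% the response element, 8.30% the gamma-activated site, 7.81% the AP-1 site and 13.6% TATAAA. These are letter matches and not measured binding.

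**Figure D1:**
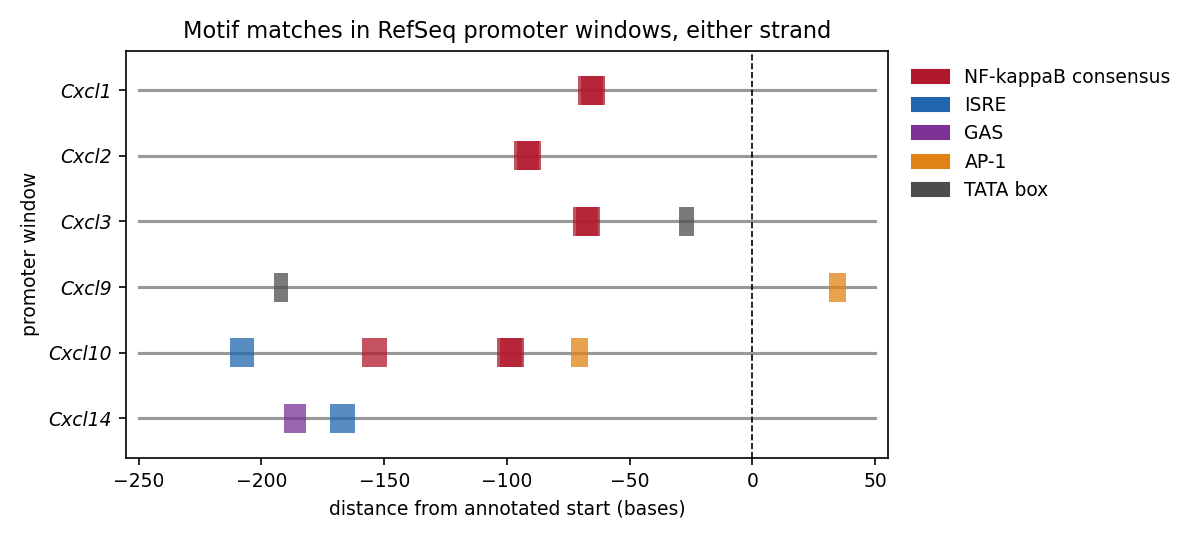
Motif matches on either strand in the RefSeq promoter windows of 6 CXC ligand genes, by distance in bases from the annotated start (dashed line). NF-kappaB consensus matches (red) start from 71, 97 and 73 bases upstream in Cxcl1, Cxcl2 and Cxcl3, and from 159 and 104 bases upstream in Cxcl10.

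Values are FPKM, a read count scaled for gene length and library size, so levels can be set beside each other between genes of 1 library. The libraries had an estimated 12200000 to 16100000 reads, and 9927 to 10084 genes reached 1 FPKM. Macrophage markers were mostly, but not all, well detected: Csf1r, the macrophage growth factor receptor gene, lay between 397 and 637 FPKM and Adgre1, which encodes F4/80, between 18.3 and 32.7 FPKM. Mertk, another macrophage marker, did not pass 0.028 FPKM. Of 10 macrophage markers 9 were tested and 0 called by limma, which called 0.127% of all tested genes higher and 0% lower. Cd14 and Itgam were higher at an unadjusted p under 0.05 (5.26% of all tested genes), and Csf1r was lower (9.45%). The markers summed to 9377 and 5466 FPKM in mock, against 9877 and 12828 FPKM in coculture, most of it Lyz2, and their median difference was -0.05 in pair 1 and 0.03 in pair 2. Markers of other cell types were low, the highest being Tagln (at most 1.93 FPKM) and S100a8 (at most 2.50 FPKM). None of 12 epithelial markers passed 0.0683 FPKM. Of these, 6, Epcam and Krt18 among them, were listed at 0 in all 4 libraries. Their sum was 0.143 and 0 FPKM in mock 1 and 2, against 0.205 and 0.045 FPKM in coculture 1 and 2. The 12 mesenchymal markers summed to 2.64 and 1.81 FPKM in mock, against 2.09 and 1.62 FPKM in coculture, most of it Tagln, and the other 11, Col1a1, Sparc and Cav1 included, did not pass 0.282 FPKM. Of 10 granulocyte markers, Ly6g, S100a9 and Mpo were at 0 throughout, and the sum was 1.46 and 0.162 FPKM in mock against 2.41 and 2.73 FPKM in coculture, most of it S100a8. The 8 lymphoid markers summed to at most 0.351 FPKM. The part of RNA from other cells in the results was not tested. CT26 cells alone were not profiled, so their own level of these markers is not measured here. In bulk libraries, fewer cells that make an RNA and less RNA per cell cannot be told apart.

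Among the ELR ligands, Cxcl2 rose strongly in coculture, Cxcl3 was listed above 0 in coculture alone and at a low level, and Cxcl1 and Cxcl5 were at or near 0 throughout. Cxcl2, a neutrophil attractant also called MIP-2, measured 2.47 FPKM in mock 1 against 1338 FPKM in coculture 1. In pair 2 it measured 0.644 FPKM in mock against 146 FPKM in coculture. Both coculture libraries lay far above both mock libraries. The FPKM ratio was 543-fold in pair 1 and 226-fold in pair 2. The mock 2 value rests on an estimated 11.2 to 20.9 reads, depending on the gene length assumed, so the second ratio is the less precise. By level, Cxcl2 went from rank 9142 to rank 16 of the 22554 genes in pair 1, and from rank 10404 to rank 394 in pair 2. Taken as coculture minus mock, its difference on the log2(FPKM + 1) scale was the largest of 10202 tested genes in pair 1 and the third largest in pair 2, after Acod1 and Il1b.

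Cxcl2 rose by 7.54 ± 0.51 on that scale (moderated SE, n = 2 pairs, limma adjusted p = 0.04995), with 8.59 in pair 1 and 6.48 in pair 2. Cxcl2 met the filter of at least 1 FPKM in at least 2 libraries only through its coculture values. It was the 1 CXC ligand called, of 5 that could be tested, where limma called 0.127% of all tested genes higher. That is 13 genes higher and 0 lower, and 85 higher and 18 lower after median centring. The adjusted p lies just under the bound of 0.05, and the call was lost in 7 of 13 alternatives. These were with no filter on low values (limma adjusted p = 0.736), without the pair as a block (0.806), without a trended prior variance (0.101), and in the 4 fits without 1 library, unblocked (0.306 to 0.9999, differences of 5.94 to 9.13). Those 4 fits leave a group with 1 library, assumed to vary like the other group, and called 0 genes of any kind, so their p-values say nothing about Cxcl2 in particular. In the other 6 alternatives the adjusted p was between 0.00885 and 0.0427. The difference lay between 5.94 and 9.13 in all 13.

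Cxcl3, the closest relative of Cxcl2, was listed at 0 in both mock libraries and stood at 1.76 FPKM in coculture 1 and 2.65 FPKM in coculture 2. No fold can be given against a listed 0. The difference on the log2(FPKM + 1) scale was 1.47 in pair 1 and 1.87 in pair 2, or 1.67 ± 0.23 over both, and it did not pass the test (limma adjusted p = 0.123). It depends on the pseudocount: with 0.1 in place of 1 it was 4.50 (limma adjusted p = 0.103), and after median centring of the libraries it passed (1.73, limma adjusted p = 0.0442). The coculture values rest on an estimated 28.9 to 99.4 reads in coculture 1 and 32.8 to 113 reads in coculture 2.

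Cxcl3 did not scale with Cxcl2. Per length, Cxcl2 was 758 times as abundant as Cxcl3 in coculture 1 and 55 times in coculture 2. The coding sequences of the pair are 89.8% identical over 303 bases in GENCODE M21, and their transcripts share a run of 110 identical bases. How reads that match both genes were treated is not given in the sources used here, so the low Cxcl3 level is uncertain beside the high Cxcl2 level. Cxcl1 is less like either, with 75.6% identity to Cxcl2 and 72.6% to Cxcl3 over the same number of aligned bases, and a longest shared run of 23 bases with each.

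Cxcl1, which encodes the neutrophil attractant KC, was listed at 0 in mock 1, mock 2 and coculture 2, and at 0.0645 FPKM in coculture 1, an estimated 0.990 to 1.95 reads. Cxcl5, whose protein is also called LIX, was at 0 in all 4 libraries. Neither reached the filter of at least 1 FPKM in at least 2 libraries, so neither was tested. Genes that every cell uses were not at 0: the lowest value among 12 such genes was 18.4 FPKM. Levels that high cannot show whether a gene at a low level would have been seen. Cxcl1 and Cxcl2 were far apart in level in coculture 1. They are neighbours on chromosome 5 and both have the 11-base NF-kappaB match described above.

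**Figure D2:**
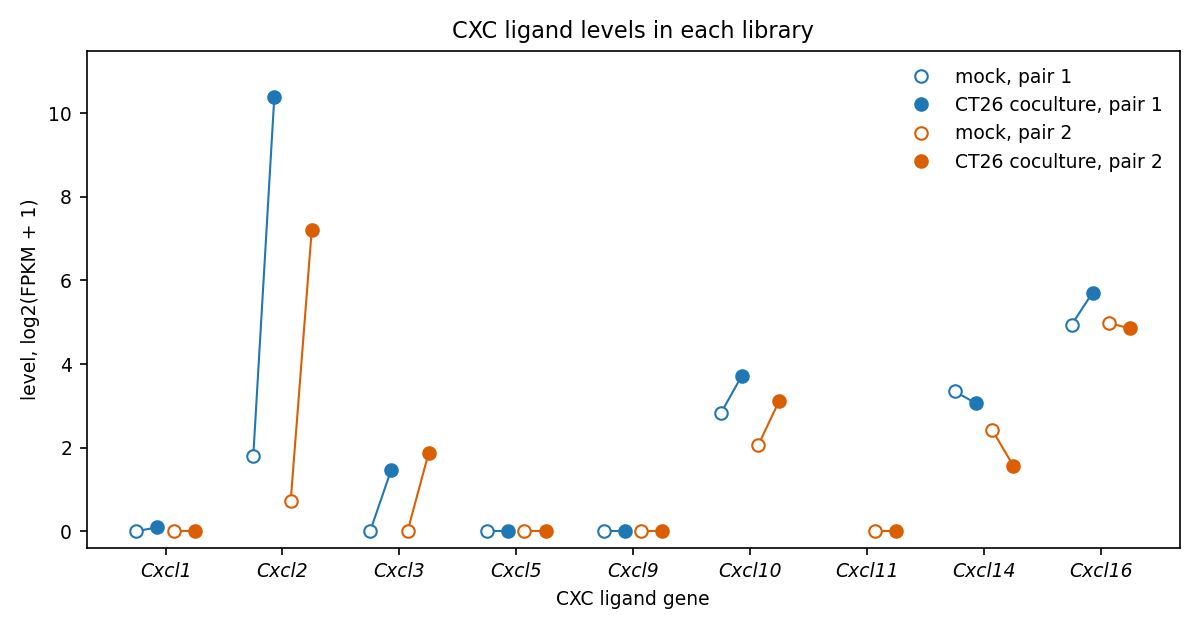
Level of the 9 CXC ligand genes in each library, as log2(FPKM + 1), with open circles for mock, filled circles for CT26 coculture and a line joining the libraries of a pair. Cxcl2 goes from 2.47 to 1338 FPKM (pair 1) and 0.644 to 146 FPKM (pair 2), Cxcl1, Cxcl5, Cxcl9 and Cxcl11 lie at or near 0, and Cxcl11 has values in pair 2 alone.

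Of the CXCR3 ligands, Cxcl10 was the 1 with signal, and it stood about as much higher in pair 1 as in pair 2. It measured 6.09 FPKM in mock 1 against 12.2 FPKM in coculture 1. In pair 2 it measured 3.17 FPKM in mock against 7.73 FPKM in coculture. Both coculture libraries lay above both mock libraries, by a small margin for coculture 2 over mock 1, which compares across tables that may have been scaled separately. The FPKM ratio was 2.0-fold in pair 1 and 2.44-fold in pair 2, and the differences on the log2(FPKM + 1) scale were 0.90 and 1.07. Over both pairs the difference was 0.98 ± 0.16 and did not pass the test (limma adjusted p = 0.143). It ranged from 0.60 without mock 2 to 1.36 without mock 1, both unblocked. Cxcl9 was listed at 0 in all 4 libraries. Cxcl11, which RefSeq lists as a transcribed pseudogene in its reference mouse strain, is named in the second table alone, at 0 in both libraries.

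Cxcl14 was lower in both pairs and Cxcl16 went both ways. Cxcl14 measured 9.16 FPKM in mock 1 against 7.35 FPKM in coculture 1. In pair 2 it measured 4.37 FPKM in mock against 1.97 FPKM in coculture. The groups overlap, since coculture 1 lies above mock 2, though this compares across tables that may have been scaled separately. The difference was -0.28 in pair 1 and -0.86 in pair 2, or -0.57 ± 0.21 over both (limma adjusted p = 0.338), and it was 0.18 without coculture 2, unblocked and so across tables. Cxcl16 measured 29.7 FPKM in mock 1 against 51.4 FPKM in coculture 1, but 30.6 FPKM in mock 2 against 27.9 FPKM in coculture 2. The groups overlap, and the differences of 0.77 and -0.13 have opposite signs, as they had for 35.8% of all tested genes. Over both pairs the difference was 0.32 ± 0.24 (limma adjusted p = 0.577), and -0.11 without coculture 1, unblocked.

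Counted together, 2 of the 5 tested ligands, Cxcl2 and Cxcl3, were at least 2-fold higher on the log2(FPKM + 1) scale in both pairs, against 1.02% of all tested genes, and 0 were 2-fold lower in both, against 0.353%. In 3 of 5 (Cxcl2, Cxcl3 and Cxcl10) both coculture libraries lay above both mock libraries, against 10.3% of all tested genes. That count compares libraries across the tables, which may have been scaled separately. The same 3 were the tested ligands with higher values in both pairs, against 21.5%, and Cxcl14 was the 1 with lower values in both, against 42.2%. None was called lower by limma, as for all tested genes (0%). At an unadjusted p under 0.05, 3 ligands were higher (5.26% of all tested genes) and Cxcl14 was lower (9.45%). The tested ligands had a median difference of 0.98 (0.90 in pair 1 and 1.07 in pair 2), where all tested genes had -0.07. The 5 are not all 9 members: a ligand at 0 in mock could enter the test only through its coculture libraries, as Cxcl3 did. Cxcl2, at 2.47 and 0.644 FPKM in mock, also passed the filter only with its coculture values. The counts of higher ligands that include Cxcl2 and Cxcl3, and the median difference of the tested ligands, are thus partly fixed by the filter. Members were also chosen with earlier results of these data known, so these shares and the median are no independent support.

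**Figure D3:**
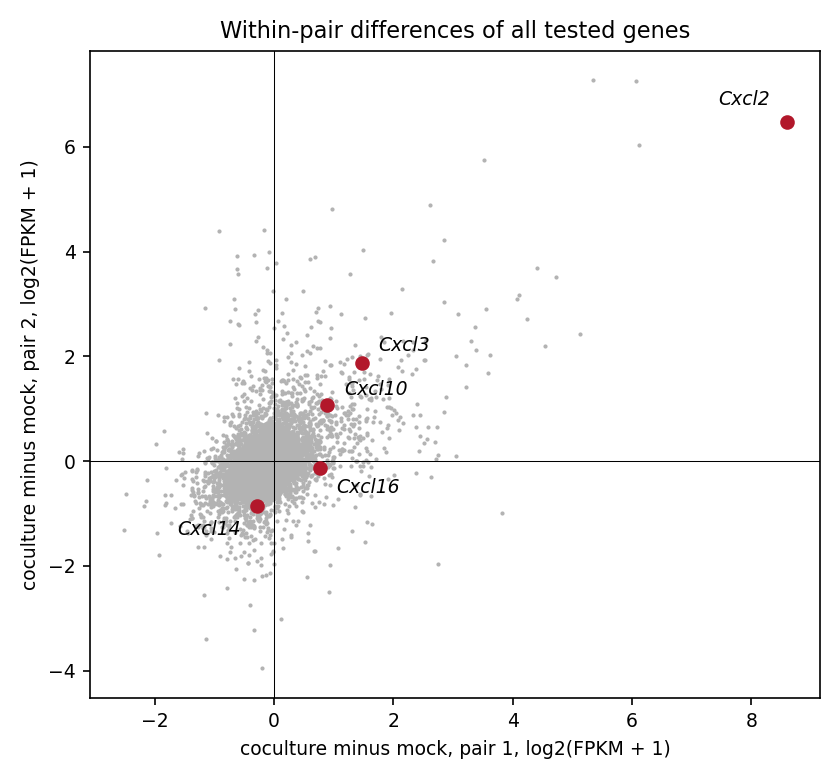
Coculture minus mock difference of each of the 10202 tested genes on the log2(FPKM + 1) scale, pair 1 across and pair 2 up, with the 5 tested CXC ligands in red. Cxcl2 lies at 8.59 and 6.48, Cxcl3 and Cxcl10 lie higher in both pairs, Cxcl14 lower in both, and Cxcl16 at 0.77 and -0.13.

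The order of the ligands by level changed between mock and coculture. In both mock libraries Cxcl16 was highest, followed by Cxcl14, Cxcl10 and Cxcl2. The mock ranges of Cxcl14 (4.37 to 9.16 FPKM) and Cxcl10 (3.17 to 6.09 FPKM) overlap, while those of the other neighbours in the order do not. Such ranges cross tables that may have been scaled separately, whereas the order holds within each mock library. In both coculture libraries Cxcl2 was highest, followed by Cxcl16 and Cxcl10. Below them Cxcl14 and Cxcl3 changed places between coculture 1 and coculture 2, and their ranges overlap. Cxcl16 was 12 and 47.5 times as abundant as Cxcl2 in mock 1 and 2. In coculture 1 and 2, Cxcl2 was 26.0 and 5.23 times as abundant as Cxcl16.

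Nearly all of the added CXC ligand RNA was Cxcl2. Summed over 14 CXC ligand genes found in both tables, the level was 29.7-fold higher in coculture 1 (1411 FPKM) than in mock 1 (47.5 FPKM), and 4.80-fold higher in coculture 2 (186 FPKM) than in mock 2 (38.8 FPKM). Without Cxcl2 the sum went from 45.1 to 73.5 (1.63-fold) in pair 1, and in pair 2 from 38.1 to 40.4 (1.06-fold). Cxcl2 made up 5.19% and 1.66% of the sum in mock 1 and 2, but 94.8% and 78.3% in coculture 1 and 2. The share of Cxcl16 was 62.5% and 78.9% in mock and 3.64% and 15.0% in coculture. The 6 ligands outside the 9 members (Pf4, Ppbp, Cxcl12, Cxcl13, Cxcl15 and Cxcl17) did not pass 0.734 FPKM in any library, and 4 of them were at 0 in all 4.

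**Figure D4:**
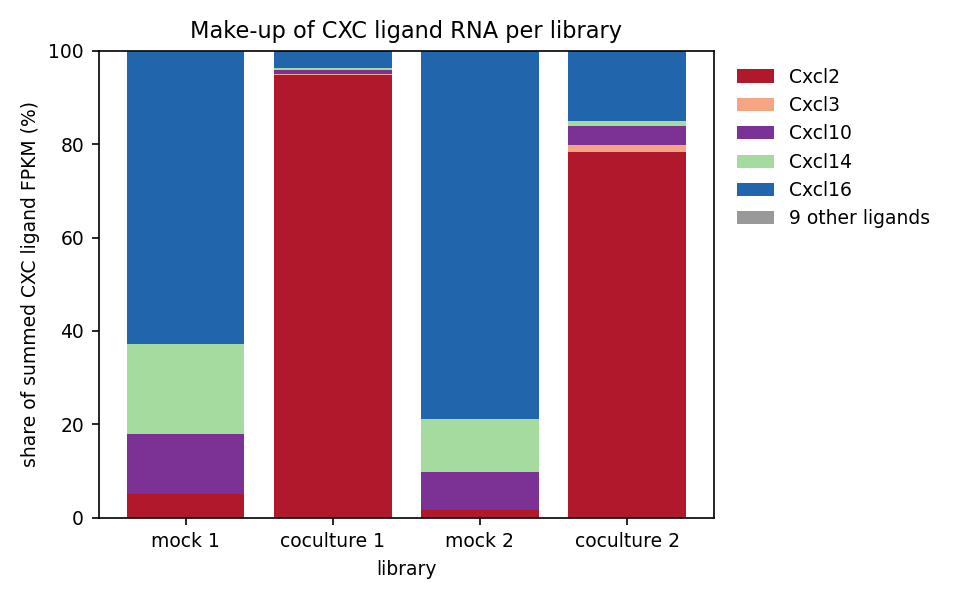
Share of the summed FPKM of 14 CXC ligand genes taken by each ligand in the 4 libraries, in percent. Cxcl16 takes 62.5% and 78.9% in the mock libraries, and Cxcl2 takes 94.8% and 78.3% in the coculture libraries.

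Receptor RNA for the ELR ligands was not seen. Cxcr1 and Cxcr2, and the atypical receptor gene Ackr1, were listed at 0 in all 4 libraries. Cxcr3, the receptor gene for CXCL9, CXCL10 and CXCL11, measured 4.25 and 6.31 FPKM in mock 1 and 2, against 4.45 and 7.22 FPKM in coculture 1 and 2 (difference 0.11 ± 0.16, limma adjusted p = 0.777). Cxcr5 measured 1.22 and 1.37 FPKM in mock, against 1.48 and 3.25 FPKM in coculture (limma adjusted p = 0.426). Cxcr4, the CXCL12 receptor gene, reached 1 FPKM in mock 2 alone and was not tested: it measured 0.503 and 3.85 FPKM in mock, against 0.170 and 0.045 FPKM in coculture. Of 8 receptor genes, 2 were tested and 0 passed, or 0 at an unadjusted p under 0.05. Among enzymes that cut CXC ligands, the genes of the CXCL16 sheddases were tested and did not pass. Adam10 measured 56.7 and 64.8 FPKM in mock, against 43.0 and 56.4 FPKM in coculture (limma adjusted p = 0.360), and Adam17 at 66.2 and 60.2 FPKM in mock, against 86.3 and 66.6 FPKM in coculture (limma adjusted p = 0.407). Dpp4, whose product trims CXCL10, did not pass 0.0196 FPKM.

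Genes of the NF-kappaB pathway and of mRNA decay, listed with Cebpb and Cebpd, were mostly higher in coculture. Of these 18 genes, 1 passed the test. Such genes help set how much ELR ligand RNA a macrophage makes and keeps, some of them by lowering it. A link between their levels and those of the ligands was not tested. Nfkbiz, which encodes a nuclear NF-kappaB cofactor, measured 1.91 FPKM in mock 1 against 33.3 FPKM in coculture 1, and 2.53 FPKM in mock 2 against 25.4 FPKM in coculture 2. It rose by 3.23 ± 0.21 on the log2(FPKM + 1) scale (limma adjusted p = 0.04995). That lies just under the bound, and with no filter on low values Nfkbiz was not called (limma adjusted p = 0.736). In all, 14 of the 18, Cebpb and Cebpd among them, were higher in both pairs (21.5% of all tested genes were). At least 2-fold higher in both were 4 (1.02%): Nfkbiz, Nfkbia, Bcl3 and Zc3h12a. Il17ra was lower in both (42.2%), at 50.9 and 49.2 FPKM in mock, against 43.0 and 27.9 FPKM in coculture (limma adjusted p = 0.307). Rela, Myd88 and Traf3ip2 had opposite signs in the pairs (35.8%). The median difference of the list was 1.11 (-0.07 over all tested genes), or 1.38 in pair 1 and 0.89 in pair 2. The list was chosen with earlier results of these data known, so these figures describe it and are no independent support. Zc3h12a, whose product Regnase-1 degrades inflammatory transcripts, measured 5.62 and 6.37 FPKM in mock, against 67.5 and 42.3 FPKM in coculture (limma adjusted p = 0.0544). Nfkbia, which encodes the inhibitor IkappaB-alpha, measured 40.1 and 45.3 FPKM in mock, against 235 and 174 FPKM in coculture (limma adjusted p = 0.0575). Bcl3, another nuclear NF-kappaB cofactor gene, measured 2.34 and 3.77 FPKM in mock, against 14.8 and 18.5 FPKM in coculture (limma adjusted p = 0.0543). The p65 subunit gene Rela, chosen after its values were seen, measured 23.0 FPKM in mock 1 against 28.3 FPKM in coculture 1, but 25.1 FPKM in mock 2 against 20.8 FPKM in coculture 2. The other subunit genes on the list, Relb, Rel, Nfkb1 and Nfkb2, were higher in both pairs but did not pass the test. Their differences were 1.90, 1.09, 0.87 and 1.61 (limma adjusted p = 0.236, 0.150, 0.290 and 0.210).

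Interferon pathway genes, upstream of the CXCR3 ligands, went both ways. Of 16 genes 13 were tested and 0 passed, with 3 higher in both pairs (21.5% of all tested genes were), 4 lower in both (42.2%) and 6 of opposite sign (35.8%), counts near those shares. At an unadjusted p under 0.05 Ifngr2 was higher (5.26% of all tested genes were), and Ifnar2 and Irf8 were lower (9.45%). The median difference was 0.01, or -0.18 in pair 1 and 0.09 in pair 2. Ifngr2, a subunit gene of the interferon gamma receptor, measured 58.3 and 51.4 FPKM in mock, against 81.4 and 62.7 FPKM in coculture (limma adjusted p = 0.292). Ifnar2, a subunit gene of the type I interferon receptor, measured 26.9 and 35.1 FPKM in mock, against 18.2 and 21.8 FPKM in coculture (limma adjusted p = 0.188). The interferon transcription factor genes Irf8 and Irf1 differed by -0.43 ± 0.12 and -0.48 ± 0.19 (limma adjusted p = 0.266 and 0.354). Irf7 and Irf9, chosen after their values were seen, had mock libraries that stood far apart: Irf7 measured 19.4 and 1.13 FPKM in mock, against 17.1 and 44.4 FPKM in coculture, and Irf9 measured 18.5 and 5.52 FPKM in mock, against 13.5 and 23.1 FPKM in coculture. Ifnb1 and Ifng, the interferon genes on the list, did not pass 0.240 FPKM in any library.

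**Figure D5:**
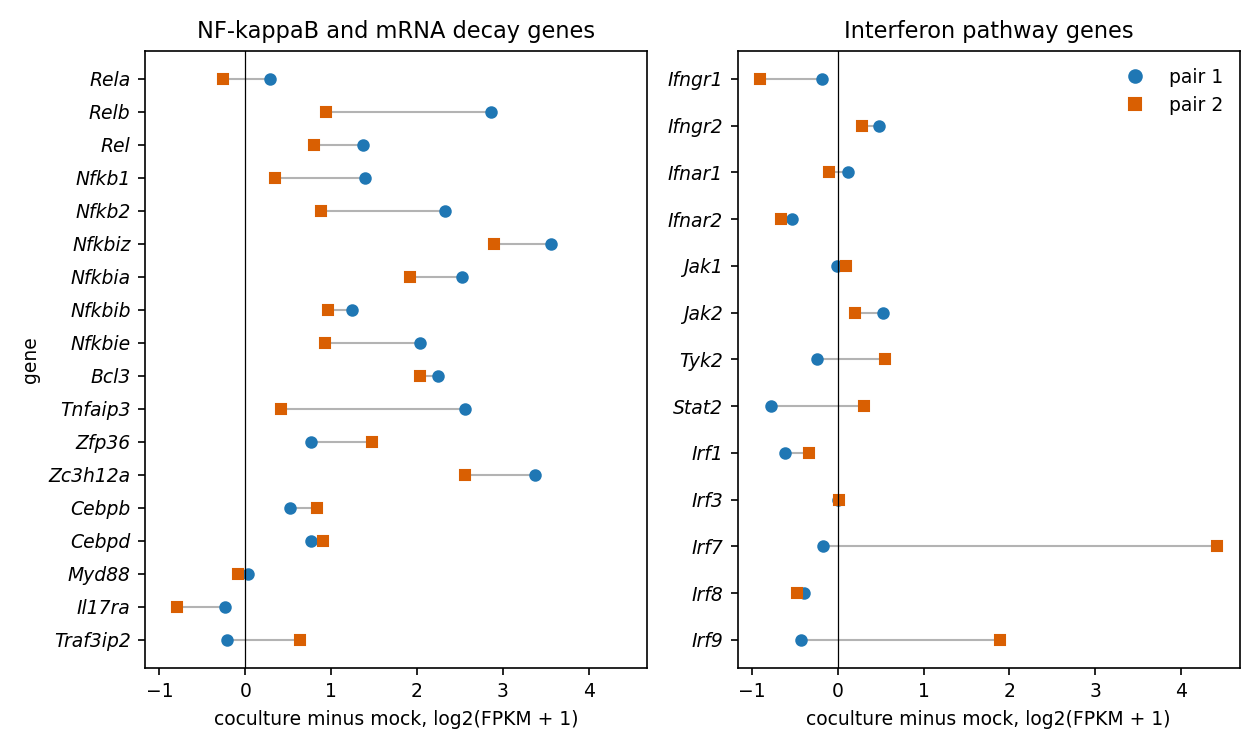
Coculture minus mock difference on the log2(FPKM + 1) scale in pair 1 (circles) and pair 2 (squares) for the 18 tested NF-kappaB and mRNA decay genes and the 13 tested interferon pathway genes, with a grey line joining the pairs. The first list also holds Cebpb and Cebpd. In it 14 genes lie to the right of 0 in both pairs, and in the second list 6 genes lie on opposite sides of 0.

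The genes whose 2 within-pair differences were most like those of a ligand were found by Euclidean distance over 9899 tested genes with regular symbols, which rests on 2 pairs. For Cxcl2 they were Csf3 (distance 2.52), Il1b (2.65) and Acod1 (3.34), none of them close: the within-pair differences of Csf3 were 6.11 and 6.03, and those of Acod1 were 5.35 and 7.28. For Cxcl10 they were Ptpn22 (distance 0.042), Bcar1 (0.053) and Vgf (0.128). Bcar1 and Vgf were low, so the pseudocount shapes their likeness to Cxcl10. Bcar1 measured 0.397 and 0.928 FPKM in mock, against 1.69 and 3.09 FPKM in coculture. Vgf measured 1.05 and 0.149 FPKM in mock, against 2.97 and 1.60 FPKM in coculture. Ptpn22 measured 50.8 and 37.9 FPKM in mock, against 93.5 and 78.8 FPKM in coculture. For Cxcl16 they were Cyp51 (distance 0.081), Fbxo11 (0.083) and Hmgcs1 (0.098), each higher in pair 1 and lower in pair 2. Cyp51 stood at 25.3 and 44.1 FPKM in pair 1 and 53.7 and 46.3 FPKM in pair 2, mock first.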

How the data were processed

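The values are FPKM, deposited by the authors in 2 tables that hold a pair of libraries each. The tools named in the submitters' processing notes are featureCounts, Subread and Trim Galore, and the build is the human hg38, although the symbols are mouse; versions, gene lengths and read totals: not given in the sources used here. Rows without a name (23) or with a repeated name (287), all in the first table, were left out.

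The 10202 genes that reached 1 FPKM in 2 or more of the 4 libraries were tested on log2(FPKM + 1) with limma 3.58.1 (R 4.3.3; trended eBayes, two-sided, Benjamini-Hochberg, called under 0.05). Fold changes on this scale understate those of low genes. The pair was a block, since the authors may have scaled each table on its own: both libraries of a number share a table, and their deviations from the group means correlated at 0.76 across genes. Residual degrees of freedom were 1, and prior degrees of freedom 3.43; each SE is moderated across genes. It was tested on simulated data. Depth was estimated by scaling low FPKM, with GENCODE M21 exon lengths, to whole reads; 31.1% to 33.7% of them came within 0.05 of a whole read, so read numbers are approximate.

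Named genes were the 9 ligands, receptors and other ligands at 1 FPKM or more, up to 4 tested genes per list with the largest same-sign differences, 3 nearest genes for each of Cxcl2, Cxcl10 and Cxcl16, and chosen markers. Members and lists were chosen with earlier results of these data known. A gene of the interferon list is not reported here. Promoters are RefSeq's, build GRCm38.p6. Alternatives covered the pseudocount, filter, scaling, block, prior trend and single libraries.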

Additional observations from a re-analysis of the deposited data

How the results depend on the processing

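Limma called 13 genes higher and 0 lower (537 and 964 at an unadjusted p under 0.05). The count of higher genes was 22 with a pseudocount of 0.1, 25 with at least 5 FPKM, 25 after rescaling to a common total, 85 after median centring and 43 after quantile normalization. Lower genes were then 0, 1, 1, 18 and 3. Median centring moved the median of all genes in pair 1 by 0.10. With no filter 0 were called (530 and 984 at an unadjusted p under 0.05), with no trend in the prior variance 1 was higher, and with no replicate block 1 was higher and 0 lower. Leaving out each library, unblocked, gave 0 to 0 in either direction (141 to 275 and 35 to 301 at an unadjusted p under 0.05). CXC ligands called higher, 1 in the reported fit, were 2 after median centring (Cxcl2 and Cxcl3) and 0 with no filter, with no replicate block, with no trend and without any single library (0 to 0). None was called lower in any of these settings. Ligands 2-fold higher in both pairs, 2 as reported, were 1 with at least 5 FPKM, where Cxcl3 leaves the test, and 3 after quantile normalization, where Cxcl10 joins. The differences of Cxcl2, Cxcl3 and Cxcl10 kept their sign in every alternative that tested them, with Cxcl10 between 0.60 and 1.36 when single libraries were left out. Left-out libraries, unblocked, gave Cxcl14 a difference between -1.32 and 0.18 (reversed without coculture 2) and Cxcl16 one between -0.11 (reversed without coculture 1) and 0.75; the cause was not tested. The pair block changed no ligand's call but that of Cxcl2. The number of libraries (2 pairs) limits precision, and depth limits Cxcl1, Cxcl3 and the mock level of Cxcl2.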
